A study of Mus musculus with 5 samples.

Results

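The 10 genes studied here mark endothelial cells, the cells that line blood vessels, and their RNA was measured in mouse neural tubes with and without the receptor for erythropoietin. The members were named as a list (Pecam1, Cdh5, Kdr, Flt1, Tek, Tie1, Esam, Emcn, Egfl7 and Cldn5) and taken by gene symbol. All 10 were found among the 23284 genes counted, and all 10 were among the 12703 genes with more than 1 CPM in at least 2 libraries, the set used for tests. CPM is the count of a gene scaled to the effective size of its library, so that depths can be compared. Neural tubes, the embryonic tissue that gives rise to brain and spinal cord, were dissected by hand and with enzymes, and polyA RNA was sequenced. Of the 5 libraries, 2 are labelled EpoR -/- (EpoR-null, n = 2), 2 are labelled EpoR +/+ (wild type, n = 2) and 1 is labelled EpoR +/- (heterozygote, n = 1), all at embryonic day 8.5 by the labels, while the study itself gives a somewhat later stage. The embryos came from crosses of heterozygous parents, no further allele or agent is named for any group, and wild type and heterozygote libraries together served as 3 littermate controls. The allele acts in the whole embryo, so that neural, vascular and blood cells of an EpoR-null embryo all carry it.

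Endothelial cells of the early neural tube enter from outside it. The neural plate makes no vessels of its own, and angioblasts and sprouts of the perineural plexus grow around and into the tube in answer to vascular endothelial growth factor (VEGF) made by neural progenitors. Kdr and Flt1 encode the receptors for VEGF, Tek and Tie1 the TIE receptors of the angiopoietin pathway, Cdh5, Cldn5, Esam and Pecam1 proteins of the contacts between endothelial cells, Emcn a sialomucin of their surface, and Egfl7 a protein they secrete. Many endothelial genes are controlled by ETS family transcription factors, which bind a GGAA core.

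Promoter sequences were looked up for the members because Egfl7 differed from the other 9, as described further on. Those 9 were more than 10 times below the wild type mean in the library labelled heterozygote, and Egfl7 was not. The RefSeq promoter table, build GRCm38.p6, held entries for 7 of the 10 members. Kdr, Tie1 and Emcn are shown from among those 9, and Egfl7, which has 3 annotated starts, is shown at its first. Each line gives the 250 bases before the start, on the strand of the gene and 5′ to 3′, and capitals mark matches to CCGGAA or CAGGAA, 2 hexamers with the ETS core, on either strand (TTCCGG or TTCCTG when read on the other one).
Kdr (chr5:75978456-75978705, minus strand): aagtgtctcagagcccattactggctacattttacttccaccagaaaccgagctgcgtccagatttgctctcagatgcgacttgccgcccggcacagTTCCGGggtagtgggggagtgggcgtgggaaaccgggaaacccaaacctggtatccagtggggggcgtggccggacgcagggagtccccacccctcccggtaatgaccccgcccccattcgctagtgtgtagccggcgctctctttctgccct
Tie1 (chr4:118489850-118490099, minus strand): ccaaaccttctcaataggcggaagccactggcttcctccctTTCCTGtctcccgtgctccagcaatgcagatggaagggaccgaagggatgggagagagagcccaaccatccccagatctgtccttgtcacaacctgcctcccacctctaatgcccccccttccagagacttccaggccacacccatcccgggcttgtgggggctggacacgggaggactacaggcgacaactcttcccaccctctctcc
Emcn (chr3:137340828-137341077, plus strand): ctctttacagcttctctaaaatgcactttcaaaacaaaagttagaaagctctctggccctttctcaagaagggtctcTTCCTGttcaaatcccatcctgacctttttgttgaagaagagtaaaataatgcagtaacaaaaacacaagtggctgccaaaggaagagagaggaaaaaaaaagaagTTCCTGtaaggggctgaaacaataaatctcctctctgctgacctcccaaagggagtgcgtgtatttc
Egfl7 (chr2:26580833-26581082, plus strand): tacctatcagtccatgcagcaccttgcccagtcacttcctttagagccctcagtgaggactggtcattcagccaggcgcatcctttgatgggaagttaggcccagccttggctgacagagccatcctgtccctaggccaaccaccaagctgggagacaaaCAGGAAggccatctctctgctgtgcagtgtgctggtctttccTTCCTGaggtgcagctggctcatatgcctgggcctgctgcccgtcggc
In the full windows of 300 bases, which add 50 bases after the start, CAGGAA was found for 4 of the 7 members (Tek, Tie1, Emcn and Egfl7) and CCGGAA for 1 (Kdr), and neither was found for Flt1 or Cldn5. Over all 32851 promoters of the table, 30.6% held CAGGAA, 14.9% held CCGGAA and 41.4% held at least 1 of them. These shares are by start and not by gene. Counted by start, 5 of the 9 member promoters held CAGGAA, 1 held CCGGAA and 6 held at least 1 of them. A match on one strand that overlapped a match on the other was counted separately. Egfl7 held 2 matches at its first start, 1 at the next and 0 at the last. Pecam1, Cdh5 and Esam had no entry.

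Reads counted on genes came to between 19316126 and 41169218 per library, so that a count of 3 reads stands for 0.0715 to 0.152 CPM. Epor, the targeted gene, was covered by 57 and 68 reads in the wild type libraries (2.35 and 1.62 CPM), 7 and 19 reads in the EpoR-null libraries (0.354 and 0.669 CPM) and 11 reads (0.476 CPM) in the library labelled heterozygote. The library labelled heterozygote therefore lay between the EpoR-null libraries in Epor and below both wild type libraries. Erythroid and endothelial genes were also low in that library, as described below. Whether its few Epor reads follow its genotype or the cells it held was not tested. It is called by its label throughout, because its label decides the direction of every comparison it enters. Which part of Epor the allele lacks is not given in the sources used here. Neural progenitor RNA was present in all 5 libraries, which does not show that each held the same other tissues. The summed level of 8 neural progenitor genes (Sox2, Sox1, Sox3, Pax6, Nes, Hes5, Cdh2 and Msi1) was 1999 and 2002 CPM in wild type. It was 2251 CPM in the library labelled heterozygote and 1687 and 1946 CPM in EpoR-null. Nothing in the labels says more of the replicates than that they are separate samples. The p-values weigh differences between groups against the spread between samples within groups. The library labelled heterozygote has no replicate, so its comparison with wild type takes the spread from the other groups and says nothing of variation between heterozygotes.

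The endothelial genes were present at overlapping levels in wild type and EpoR-null neural tubes and at lower levels in the library labelled heterozygote, 9 of them more than 10 times below the wild type mean and Egfl7 2.63 times. Summed over the 10 members, the level was 240.4 and 382.9 CPM in the wild type libraries (5818 and 16071 reads), 337 and 218.6 CPM in the EpoR-null libraries (6672 and 6207 reads) and 27.97 CPM (647 reads) in the library labelled heterozygote. Each of the 10 members was lowest in the library labelled heterozygote, whereas 16.9% of the tested genes were. Values of EpoR-null and wild type overlapped for all 10, whereas the groups were apart for 48.2% of the tested genes. In bulk tissue, fewer endothelial cells and less of these RNAs per cell cannot be told apart.

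**Figure D1:**
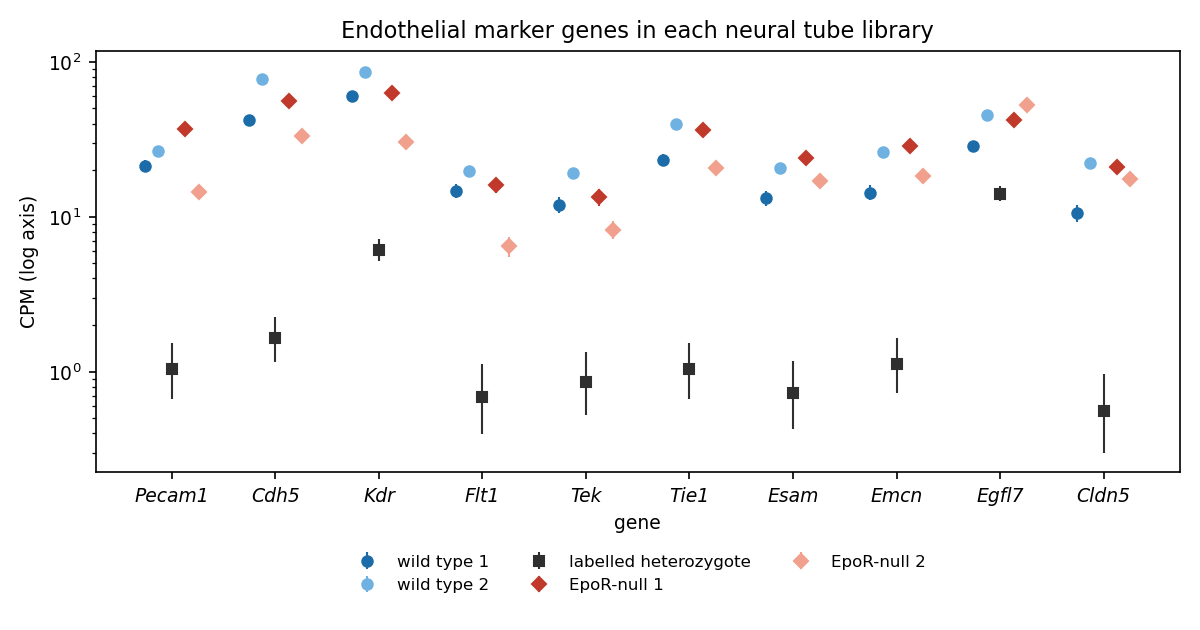
Level of each endothelial marker gene in CPM (log axis) in each of the 5 libraries; points are libraries and bars the 95% Poisson counting interval. The library labelled heterozygote lies below the other 4 for each gene, by far for 9 of them and less for Egfl7.

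Both VEGF receptors were detected in every library and gave the same order of libraries. Kdr, the main signalling receptor for VEGF on endothelial cells, was counted at 60.2 and 85.9 CPM in wild type, 6.14 CPM in the library labelled heterozygote (142 reads) and 62.7 and 30.3 CPM in EpoR-null. Flt1, which binds VEGF tightly and limits its action, was at 14.7 and 19.9 CPM in wild type, 0.692 CPM in the library labelled heterozygote (16 reads) and 15.96 and 6.44 CPM in EpoR-null. For both receptors EpoR-null 1 lay between the wild type libraries and EpoR-null 2 below them. Fitted against wild type, EpoR-null was at −0.65 ± 0.42 (log2 fold change ± SE, n = 2 and 2) for Kdr and −0.63 ± 0.52 for Flt1, with adjusted p = 0.51 and 0.582 by edgeR's quasi-likelihood F-test.

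The TIE receptors gave that order of libraries too. Tek, the angiopoietin receptor, was at 12.0 and 19.2 CPM in wild type, 0.865 CPM in the library labelled heterozygote (20 reads) and 13.4 and 8.20 CPM in EpoR-null. Tie1, its partner without a well-defined ligand of its own, was at 23.3 and 39.8 CPM in wild type, 1.04 CPM in the library labelled heterozygote (24 reads) and 36.5 and 20.8 CPM in EpoR-null. EpoR-null 1 again lay between the wild type libraries and EpoR-null 2 below both. The differences of EpoR-null from wild type were −0.54 ± 0.44 for Tek and −0.15 ± 0.43 for Tie1 on the log2 scale, with adjusted p = 0.549 and 0.886 by the same test.

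The genes of cell contacts were again lowest in the library labelled heterozygote, but the order of the other 4 libraries differed from gene to gene. Cdh5, the cadherin of endothelial adherens junctions, was at 42.1 and 76.9 CPM in wild type, 1.64 CPM in the library labelled heterozygote (38 reads) and 56.2 and 33.0 CPM in EpoR-null. Pecam1, an adhesion molecule of endothelial contacts that platelets and leukocytes also carry, was at 21.3 and 26.6 CPM in wild type, 1.04 CPM in the library labelled heterozygote (24 reads) and 36.7 and 14.4 CPM in EpoR-null. For Pecam1 the wild type libraries lay inside the range of the EpoR-null ones, and for Cdh5 only EpoR-null 1 lay between the wild type libraries. Cldn5, the claudin that seals tight junctions of brain endothelium, was at 10.6 and 22.3 CPM in wild type, 0.562 CPM in the library labelled heterozygote (13 reads) and 20.8 and 17.6 CPM in EpoR-null. Esam, an adhesion molecule of the same contacts, was at 13.1 and 20.7 CPM in wild type, 0.735 CPM in the library labelled heterozygote (17 reads) and 24.1 and 17.1 CPM in EpoR-null. Both EpoR-null libraries lay between the wild type ones for Cldn5, and for Esam EpoR-null 1 lay above them. Differences from wild type were −0.42 ± 0.42 for Cdh5, 0.09 ± 0.51 for Pecam1, 0.22 ± 0.45 for Cldn5 and 0.28 ± 0.38 for Esam (log2 ± SE), with adjusted p between 0.656 and 0.944 in the quasi-likelihood F-test.

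The remaining members are a surface protein, Emcn, and a secreted one, Egfl7. Emcn was at 14.3 and 26.2 CPM in wild type, 1.12 CPM in the library labelled heterozygote (26 reads) and 28.6 and 18.3 CPM in EpoR-null. Egfl7, which endothelial cells secrete into the matrix around growing vessels, was at 28.8 and 45.5 CPM in wild type, 14.1 CPM in the library labelled heterozygote (327 reads) and 42.1 and 52.4 CPM in EpoR-null. EpoR-null 1 was above both wild type libraries for Emcn, with EpoR-null 2 between them. Egfl7 was the only member whose highest level was in EpoR-null 2, and the only one above 10 CPM in the library labelled heterozygote. Against wild type, EpoR-null differed by 0.21 ± 0.43 for Emcn and 0.35 ± 0.32 for Egfl7 (log2 ± SE), with adjusted p = 0.82 and 0.59 by the same test.

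Levels can be compared between members only per length. Per kilobase of the longest annotated transcript, the mean wild type level was 19.9 CPM for Egfl7, 14.9 for Cdh5, 12.3 for Kdr, 11.6 for Cldn5, 9.07 for Esam, 7.45 for Tie1, 6.96 for Pecam1, 5.75 for Emcn, 3.35 for Tek and 2.50 for Flt1. The ranges of the wild type libraries overlapped for every neighbouring pair in this order, least for Emcn (from 4.07) and Tek (up to 4.13). Egfl7 was also first in EpoR-null (25.4 CPM per kilobase) and in the library labelled heterozygote (7.58), and Flt1 last in all 3 (1.63 and 0.10).

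None of the members passed the threshold between EpoR-null and the 3 controls, the comparison the study was designed around. In the exact test of edgeR 0 of 10 were called at an adjusted p under 0.05, against 7.31% of the tested genes (230 higher and 698 lower), and 0 of 10 had an unadjusted p under 0.05. Their log2 fold changes ranged from −0.13 ± 0.94 for Kdr to 0.84 ± 1.08 for Esam with a median of 0.53, and over all tested genes the median was 0.06. Adjusted p lay between 0.448, for Egfl7, and 1. The quasi-likelihood F-test called 0 genes at all, with 1754 lower and 1298 higher genes at an unadjusted p under 0.05 and 0 of the 10 members among them. The controls include the library labelled heterozygote. Standard errors were 0.94 to 1.18 for 9 members and 0.48 for Egfl7 (0.68 ± 0.48), and 0.32 to 0.52 for all 10 when wild type formed a group of its own. Without that library Cdh5, Tek and Tie1 changed sign, to −0.42, −0.54 and −0.14, and 0 members were called.

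Set against wild type alone, EpoR-null showed no common direction. The EpoR-null mean was above that of wild type for 5 members (Pecam1, Esam, Emcn, Egfl7 and Cldn5) and below it for the other 5. The quasi-likelihood F-test, with the 3 labelled groups fitted together, called 0 of 10 members and 0 of all genes, and at an unadjusted p under 0.05 it held 0 of the 10 members and 13.5% of the tested genes. The exact test called 0 of 10 members against 2.01% of the tested genes. Leaving out 1 EpoR-null library changed this outcome. Without EpoR-null 1, 6 members were called lower in the remaining EpoR-null library (Flt1 −1.43, Kdr −1.28, Tek −0.94, Cdh5 −0.86, Pecam1 −0.74 and Tie1 −0.62), together with 19.8% of the tested genes. Without EpoR-null 2, Pecam1 was called higher at 0.60, together with 7.9% of the tested genes, so Pecam1 had opposite signs in the 2 EpoR-null libraries. In these fits the lone library is assumed to vary like the others.

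**Figure D2:**
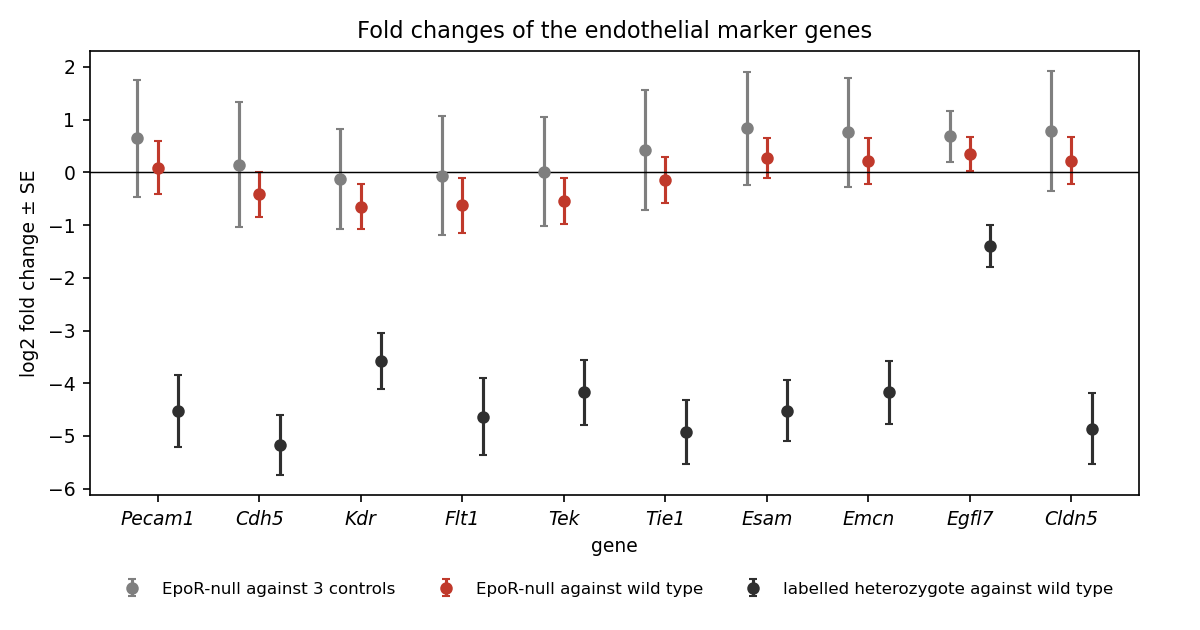
Log2 fold change of each endothelial marker gene (points) with its standard error (bars) in 3 comparisons, from the exact test of edgeR. Changes in EpoR-null lie between −0.65 and 0.84 and the error bars are widest against the 3 controls, while the library labelled heterozygote lies between −5.18 and −3.57 for 9 genes and at −1.39 for Egfl7.

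The library labelled heterozygote was compared with wild type in its own right. Wild type means exceeded it by 36.2 times for Cdh5, 30.4 times for Tie1, 29.2 times for Cldn5, 25.0 times for Flt1, 23.1 times for Pecam1, 23.0 times for Esam, 18.1 times for Tek, 18.0 times for Emcn and 11.9 times for Kdr, and by 2.63 times for Egfl7. Counting intervals (95%) of the library labelled heterozygote, with the wild type mean held fixed, put these ratios at 10.1 to 14.1 for Kdr and 2.36 to 2.94 for Egfl7. Both stood apart from Cdh5 (26.4 to 51.2) by more than the counting error of that library. The intervals leave out counting error and spread of the wild type libraries, and the library labelled heterozygote has no replicate. Only 150 tested genes (1.18%) had a fitted level at or below 10% of wild type in this library, and 9 of them were members.

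Whether these differences passed depended on the test. The quasi-likelihood F-test, which has 2 residual degrees of freedom here, called 0 of 10 members and 0 genes in all, with a lowest adjusted p of 0.42. At an unadjusted p under 0.05 it held all 10 members as lower, against 3.18% of the tested genes. The exact test, added after the data were seen, called 9 of 10 members lower, at log2 fold changes of −5.18 ± 0.57 for Cdh5 to −3.57 ± 0.53 for Kdr, against 1.4% of the tested genes, and did not call Egfl7 (−1.39 ± 0.39, adjusted p = 0.0674). The likelihood-ratio test of edgeR called 9 members (1.54% of the tested genes lower) and DESeq2 called 10 (1.35%). Left-out libraries moved the quasi-likelihood result as well: 10 members were called without EpoR-null 1 (3.35% of the tested genes lower) and without EpoR-null 2 (3.18%), 5 without wild type 1 (0.167%; Cdh5, Tie1, Esam, Emcn and Cldn5), and 0 without wild type 2 (0%). With no filter on low counts it called 6 members, beside 0.207% of the tested genes. Without EpoR-null 1 or 2, only wild type kept 2 libraries, so the spread within groups came from that pair alone. Without wild type 1 or 2, it came from the EpoR-null pair alone. Calls in these fits rest on the spread of a single pair and are not firmer than the result with all libraries. Every fit gave a negative value for each of the 10 members.

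The other genes of endothelial cells were low in the same library, and most ligands that act on these cells were not. For this library, calls in these and the later lists come from the exact test, added after the data were seen. That test called 1.4% of all tested genes lower, and the quasi-likelihood F-test made no call in any list. Of 23 tested genes of endothelial surface, junction and cytoskeleton, the exact test called 19 lower and 0 higher in the library labelled heterozygote than in wild type, with a median log2 fold change of −3.95, while the median over all tested genes was 0.01. Cd34, a sialomucin of endothelial and blood-forming cells, was at 53.8 and 78.6 CPM in wild type, 2.64 CPM in the library labelled heterozygote and 80.6 and 48.4 CPM in EpoR-null. Plvap, which forms the diaphragms of endothelial caveolae and fenestrae, was at 25.9 and 44.9, 2.29, and 36.0 and 37.8 CPM in the same order. Both genes were lowest in the library labelled heterozygote, and wild type and EpoR-null overlapped.

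Of 17 tested transcription factors of endothelial cells, 11 were called lower and 0 higher (median −3.41). Ets1, an ETS factor also used by neural crest, was at 77.8 and 82.4 CPM in wild type, 12.8 CPM in the library labelled heterozygote and 71.4 and 51.9 CPM in EpoR-null. Ets2, a broadly used relative of Ets1, was at 33.0 and 40.1, 22.2, and 33.9 and 37.2 CPM and was not called (−0.72 ± 0.29, adjusted p = 0.709). Of 12 tested co-receptors and receptors that work beside VEGF and TIE receptors, 4 were called lower and 0 higher (median −1.12): Flt4 (−4.21), a VEGF receptor of veins and lymphatics, Plxnd1 (−3.61), a semaphorin receptor, Acvrl1 (−5.09), a receptor of the BMP family, and Aplnr (−5.38), the apelin receptor, which also stands in the list of arterial and venous genes. Notch1, which neural progenitors also use, was in this list at 235.3 and 252.1 CPM in wild type, 247.6 CPM in the library labelled heterozygote and 197.4 and 132.1 CPM in EpoR-null.

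Among 15 tested ligands that act on endothelial cells, 1 was called lower and 0 higher (median −0.05). That gene was Tgfb1 (−5.55 ± 1.004), which endothelial and blood cells make themselves. Vegfa, the ligand of Kdr and Flt1, was at 59.1 and 65.0 CPM in wild type, 62.0 CPM in the library labelled heterozygote and 55.6 and 49.3 CPM in EpoR-null. Jag1, a Notch ligand, was at 64.4 and 62.5, 64.3, and 57.1 and 39.7 CPM. For both ligands the library labelled heterozygote lay between the wild type libraries, while the receptors Kdr and Flt1 differed from wild type by more than 10 times. Of 11 tested arterial and venous genes 1 (Aplnr) was called lower and 0 higher, and of 4 tested pericyte and smooth muscle genes 1 (Tagln, −2.66 ± 0.73, a contractile protein). Nr2f2, a factor of venous identity that other tissues also use, was at 103.1 and 92.8 CPM in wild type, 93.6 CPM in the library labelled heterozygote and 109.1 and 87.6 CPM in EpoR-null. Pdgfrb, the receptor that marks pericytes, was at 26.6 and 22.1, 4.02, and 37.6 and 11.6 CPM and was not called (−2.60 ± 0.73, adjusted p = 0.147).

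Between EpoR-null and the 3 controls, 2 genes of all 13 other lists were called by the exact test, both lower. The same test called 7.31% of all tested genes (698 lower and 230 higher), so these calls do not mark out the lists. Notch3, a Notch receptor of mural cells that neural progenitors also express, was at 163.5 and 168.2 CPM in wild type, 170.8 CPM in the library labelled heterozygote and 111.3 and 104.4 CPM in EpoR-null (log2 fold change −0.64 ± 0.13, adjusted p = 0.00018). Msi1, an RNA-binding protein of neural progenitors, was at 239.5 and 263.8, 255.8, and 173.7 and 180.6 CPM (−0.51 ± 0.14, adjusted p = 0.0071). EpoR-null lay below all controls for both genes, and the quasi-likelihood F-test called neither (adjusted p = 0.059 and 0.0662). Vegfa differed by −0.24 ± 0.15 (adjusted p = 0.39), and the 23 other surface genes, 17 transcription factors, 12 receptor partners and 15 ligands gave 0 calls.

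Erythroid markers were low beside the endothelial genes in the library labelled heterozygote. The summed level of 10 primitive erythroid genes was 1132 and 627 CPM in wild type, 1728 and 982 CPM in EpoR-null and 47.8 CPM in that library, and 7 of 10 were called lower by the exact test. Hbb-y, an embryonic globin, was at 424.8 and 211.1 CPM in wild type, 15.8 CPM in the library labelled heterozygote and 801.1 and 387.7 CPM in EpoR-null. Hba-x, its alpha-type counterpart, was at 367.5 and 226.9, 14.5, and 536.3 and 343.2 CPM. Erythroid and endothelial levels did not keep one ratio, as wild type 2 had the highest endothelial sum and the lowest erythroid sum of the 4 other libraries.

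Summed levels of marker lists for tissue around the neural tube were also lowest in that library, although few of their genes passed the exact test and the quasi-likelihood F-test called 0 genes. The 10 paraxial mesoderm genes summed to 61.1 and 55.6 CPM in wild type, 11.1 CPM in the library labelled heterozygote and 120.1 and 39.9 CPM in EpoR-null, with 1 of 8 tested genes called lower (Foxc2, a forkhead factor that is also in the list of endothelial transcription factors) and 6 of 8 at an unadjusted p under 0.05. Meox1, a somite homeobox gene, was at 21.2 and 20.6, 5.66, and 36.4 and 17.6 CPM. Twist1, a factor of mesenchyme, was at 15.0 and 12.4, 1.43, and 30.3 and 8.49 CPM. Neither was called (adjusted p = 0.0763 and 0.059). The 7 neural crest genes summed to 190.5 and 162.8 CPM in wild type, 75.4 CPM in the library labelled heterozygote and 225.7 and 143.7 CPM in EpoR-null, and 2 of 7 were called lower: Ets1, which is also in the list of endothelial transcription factors and differed by more CPM than any other gene of this list, and Sox10, a neural crest factor. Sox9, a factor of neural crest and neural progenitors, was at 49.5 and 35.2 CPM in wild type, 40.2 CPM in the library labelled heterozygote and 64.6 and 40.3 CPM in EpoR-null, so that library lay between the wild type ones (log2 fold change −0.07 ± 0.41, adjusted p = 1). Of the 6 tested surface ectoderm and endoderm genes 2 were called lower (Krt8, a keratin, and Sox17, which is also in the list of endothelial transcription factors), while Foxa2, an endoderm and floor plate factor, was at 18.8 and 19.9, 22.2, and 13.8 and 26.3 CPM. None of the 4 tested genes of other blood cells and none of the 8 neural progenitor genes was called by the exact test (0 of each at an unadjusted p under 0.05, and likewise by the quasi-likelihood F-test), and none of 8 heart genes passed the filter on low counts. How much tissue around the tube each dissection kept was not tested.

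**Figure D3:**
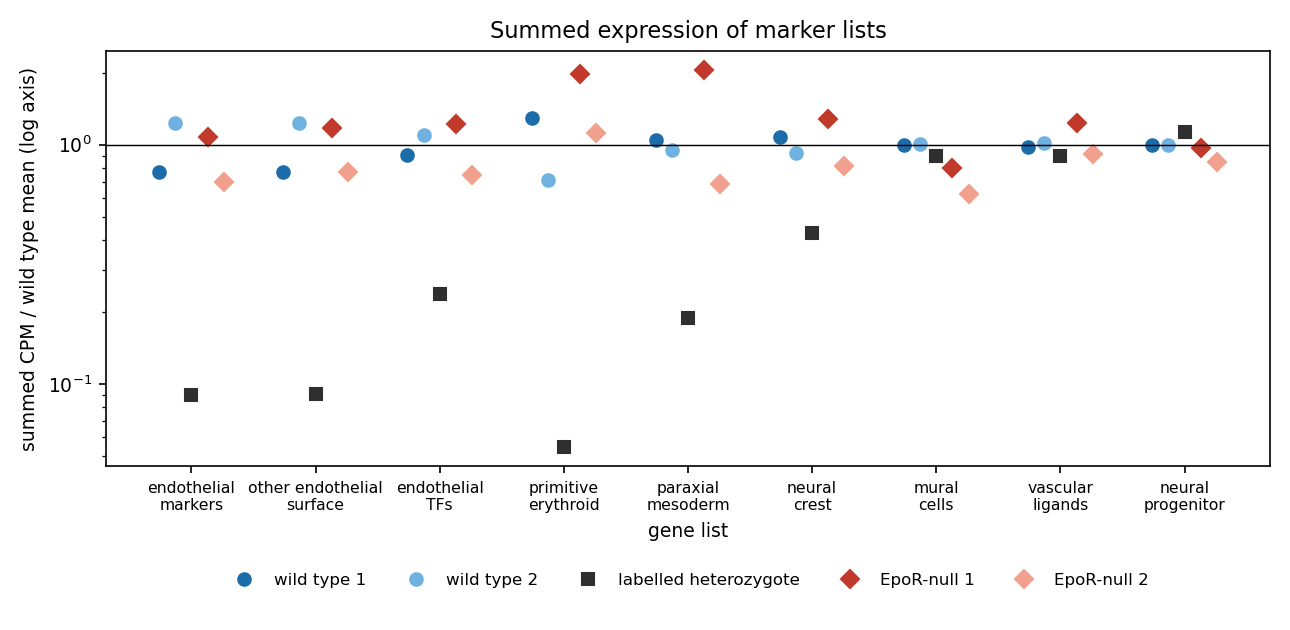
Summed CPM of each gene list divided by the wild type mean (log axis), 1 point per library. The library labelled heterozygote lies far below the others for endothelial, erythroid and paraxial mesoderm genes and near 1 for ligands and neural progenitor genes, and EpoR-null 1 is the highest in erythroid, paraxial mesoderm and neural crest genes.

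Replicates of 1 genotype differed in the endothelial genes as a block. Wild type 2 was above wild type 1 for 10 of 10 members, by 0.32 to 1.07 with a median of 0.67 (log2). EpoR-null 1 was above EpoR-null 2 for 9 of 10, by a median of 0.74 and up to 1.35, and Egfl7 was the exception at −0.32. This spread is as large as the differences between EpoR-null and wild type given above. Xist, the RNA of the inactive X chromosome, was counted at 15522 reads in the library labelled heterozygote and 6210 in EpoR-null 2 and at 12 or fewer in the others, and Y-linked Ddx3y at 2, 1 and at least 764 reads in the same order. Both libraries with Xist thus differed from the others in sex, and their endothelial sums were 27.97 and 218.6 CPM. Both wild type libraries were among the others. The comparison of the library labelled heterozygote with wild type is therefore also a comparison of sexes, and label and sex cannot be told apart in it.

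The make-up of the endothelial signal shifted between members. Kdr made up 25.0% and 22.4% of the summed CPM in wild type, 18.6% and 13.9% in EpoR-null and 21.95% in the library labelled heterozygote. Cldn5 made up 4.4% and 5.82%, 6.18% and 8.06%, and 2.01%. Shares of Cdh5, Kdr, Flt1 and Tek were below both wild type libraries in both EpoR-null libraries, and those of Esam, Emcn, Egfl7 and Cldn5 were above both. The 4 members with the lower shares have longest transcripts of 3995 (Cdh5), 5924 (Kdr), 6895 (Flt1) and 4654 (Tek) bases. The 4 with the higher shares have 1865 (Esam), 3521 (Emcn), 1865 (Egfl7) and 1416 (Cldn5) bases. Tie1 (4234 bases) is longer than Cdh5, and Pecam1 (3441 bases) is shorter than Emcn. The shares of Tie1 and Pecam1 were neither below nor above both wild type libraries in both EpoR-null libraries. The ratio of Kdr to Cldn5 was 5.69 and 3.85 in wild type, 10.9 in the library labelled heterozygote, and 3.01 and 1.72 in EpoR-null. Length and GC content were also taken out as offsets in the likelihood-ratio test. Against wild type, Kdr was then at −0.42 and Flt1 at −0.34 on the log2 scale, compared with −0.65 and −0.63 in the quasi-likelihood fit. Cldn5 turned from 0.22 to −0.07. Egfl7 moved from 0.35 to 0.095 and Esam from 0.28 to 0.049, while Emcn moved from 0.21 to 0.23. Against the 3 controls, where Kdr and Flt1 had been at −0.13 and −0.07, they were at 0.10 and 0.22. None of these values was called. No test was made on the shares.

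**Figure D4:**
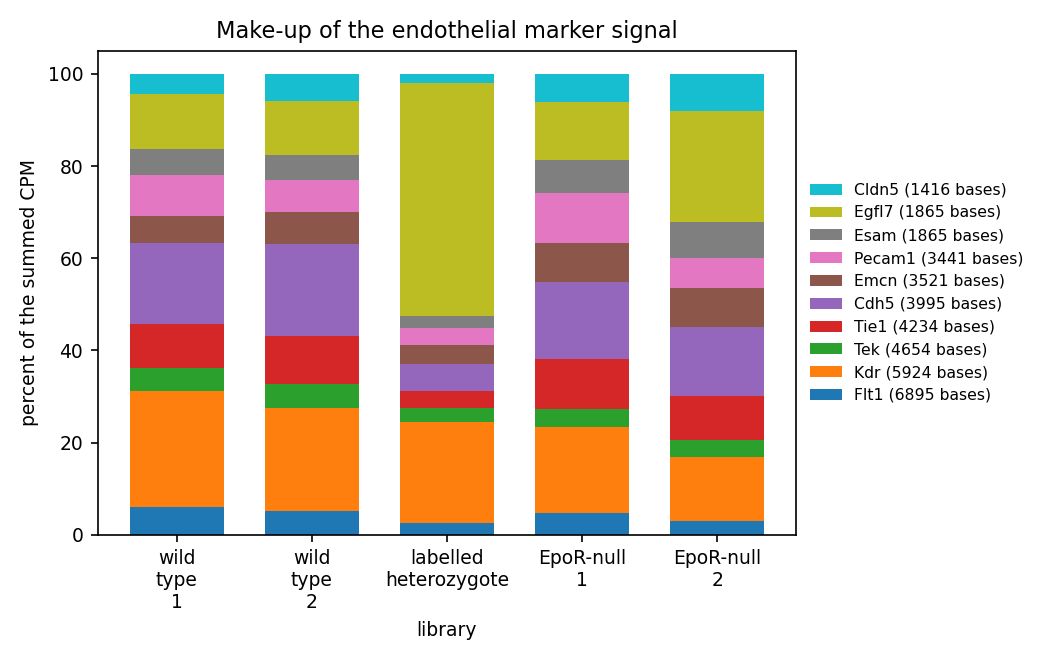
Share of each gene in the summed CPM of the 10 endothelial marker genes, per library, stacked from the longest transcript (bottom) to the shortest (top). Egfl7 makes up 50.5% in the library labelled heterozygote and 11.9% to 24.0% in the others.

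Egfl7 had the highest share of the signal in the library labelled heterozygote. Its share was 12.0% and 11.9% in wild type, 12.5% and 24.0% in EpoR-null and 50.5% in that library, where Kdr followed at 21.95% and each of the other 8 members was under 6%. Over the 5 libraries the profile of Egfl7 was the farthest from the mean profile of the 10 members, at a root mean square distance of 1.06 log2 units, whereas the others lay at 0.19 (Emcn) to 0.44 (Kdr). The 5 genes outside all lists with the closest profiles were Smagp (0.06), Rcsd1 (0.09), Arap3 (0.10), Cd38 (0.12) and Gpr97 (0.13). Arap3, a GTPase-activating protein, was the highest of these, at 18.7 and 31.6 CPM in wild type, 1.60 CPM in the library labelled heterozygote and 26.1 and 17.1 CPM in EpoR-null, and 5 libraries give few points for such a likeness.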

How the data were processed

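Raw read counts per gene were deposited by the authors, 1 table per sample. According to the submitters' processing notes, the authors checked reads with FastQC, trimmed them with Trimmomatic 0.32, aligned them with TopHat2 2.1.0 and counted them with HTSeq 0.6.1, which leaves out reads with several alignments or several genes. The notes name mm9, while the study's methods name hg19 and an earlier Tophat version, and the strand setting is not given in the sources used here. HTSeq's summary lines were not used as genes (8.12% to 11.0% of reads hit no gene and 1.85% to 2.31% were ambiguous). Counts were scaled by TMM in edgeR 4.0.16 (R 4.3.3), genes above 1 CPM in at least 2 samples were tested, and p-values were adjusted by Benjamini-Hochberg over all 12703.

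EpoR-null was tested against 3 controls by exactTest after TMM scaling, as in the study's methods, with tagwise dispersions chosen here, and the 3 labelled groups were compared by the quasi-likelihood F-test. Calls were made at an adjusted p under 0.05. Standard errors come from the negative binomial fit and counting intervals from the Poisson distribution at 95%. Alternatives were DESeq2 1.42.0, other scalings, filters and dispersions, left-out samples, a replicate block and offsets for length and GC content (loess span 0.5; longest GENCODE M21 transcript by symbol, 90.73% of tested genes). For EpoR-null against the 3 controls, the exact test, the quasi-likelihood F-test, DESeq2 and the likelihood-ratio test were tried on simulated data. For the library labelled heterozygote against wild type, only the exact test and the quasi-likelihood F-test were. The other fits were not tried in this way. The members and 13 other lists were chosen with earlier results of these data known. Genes named from those lists were drawn from those called between EpoR-null and controls or, where fewer than 2 were called, from the 2 highest in mean CPM. Other genes are named because few were called in a list, a choice made after their values were seen. No pair of samples agreed within sampling noise (lowest chi-square per degree of freedom 13.3).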

Additional observations from a re-analysis of the deposited data

How the results depend on the processing

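With 2 samples per genotype and 1 labelled heterozygote, the fits have few degrees of freedom, and depth limits only the library labelled heterozygote, where 8 members rest on 13 to 38 reads. Against the 3 controls, 0 of 10 members were called under every alternative run, while calls over all genes, 928 in the exact test, were 0 by the quasi-likelihood F-test, 1737 by DESeq2, 258 with a common dispersion, 149 with offsets for length and GC content, 606 when p under 0.001 was also asked, and 115 to 3778 with 1 sample left out. Genes called in the other lists, 2 in the exact test, were 0, 10 and 1 by the quasi-likelihood F-test, with a common dispersion and with offsets, and 1 to 12 with 1 sample left out. Signs turned for Tek with library size only (−0.025), no filter (−0.023) and a common dispersion (−0.0025), and for Kdr (0.10) and Flt1 (0.22) with offsets. With 1 sample left out, log2 fold changes ranged from −0.18 to 1.19 for Pecam1, −0.42 to 1.03 for Cdh5, −0.75 to 0.49 for Kdr, −0.87 to 0.54 for Flt1, −0.54 to 0.75 for Tek and −0.14 to 1.23 for Tie1. The cause of these shifts was not tested.

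Between EpoR-null and wild type, calls over all genes rose from 0 to 255 (exact test), 259 (likelihood-ratio test), 272 (DESeq2) and 62 (with offsets), with 0 members in each, and ranged from 0 to 4633 with 1 sample left out (0 to 6 members). Cldn5 was at −0.065 with offsets. With 1 sample left out, values ranged from −0.74 to 0.60 for Pecam1, −0.86 to 0.082 for Cdh5, −0.62 to 0.30 for Tie1, −0.0092 to 0.65 for Esam, −0.16 to 0.71 for Emcn and −0.21 to 0.86 for Cldn5.

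For the library labelled heterozygote against wild type, 0 members and 0 genes in the quasi-likelihood F-test became 6 and 40 with no filter, 9 and 179 by the exact test, 9 and 197 by the likelihood-ratio test, 10 and 173 by DESeq2, and 10 and 188 with offsets, and 0 to 10 members and 0 to 430 genes with 1 sample left out. No value reversed.

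The replicate numbers are shared by wild type and EpoR-null but nothing says that they mark a litter or day. Across genes, the difference between wild type 1 and 2 correlated with that between EpoR-null 1 and 2 (Pearson r = 0.427 across genes, which are not independent, and 0.581 across members). A correlation leaves out mean shifts, and those of the members were opposite. Wild type 2 was above wild type 1 for 10 of 10, and EpoR-null 1 above EpoR-null 2 for 9. With the number as a replicate block, the quasi-likelihood F-test called 695 genes, 0 members and 2 genes of other lists against the 3 controls (Flt1 at 0.0054), and 0 genes and 0 members against wild type (Pecam1 at −0.051).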
